A study of Rattus norvegicus with 16 samples.

Results

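Respiratory complexes II to V are the part of the mitochondrial electron transport chain that follows and runs beside complex I, together with ATP synthase. Their subunits are encoded mostly in the nucleus. The genes described here were 34 nuclear subunit genes of complex II, complex III, complex IV and ATP synthase, chosen by symbol in the array annotation. Of these, 31 were measured among 22093 genes: 4 of 4 for complex II, 9 of 9 for complex III, 8 of 10 for complex IV and 10 of 11 for ATP synthase. Cox6b1 had no probe set named for it in the annotation used here. Cox7c and Atp5f1c had only probe sets named for several genes, and Atp5f1d was matched through its older symbol Atp5d. The livers came from male Wistar rats (RccHan:WIST), aged 7 to 8 weeks at purchase and kept 2 or 3 to a cage. The phenformin groups ate feed with 3000 ppm phenformin for 3 or 14 days, and the control groups of the same days ate feed without it. Each of the 4 groups had 4 arrays, 16 in all, while the labels state 5 animals per group. The labels do not say which arrays came from cage mates.

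Electrons enter this part of the chain through complex II, which oxidises succinate in the tricarboxylic acid cycle, and through ubiquinol made by complex I. Complex III passes them to cytochrome c, complex IV passes them to oxygen, and complexes III and IV move protons across the inner membrane. ATP synthase lets the protons back and makes ATP. Complex II is built only from nuclear genes, while complexes III and IV and ATP synthase also need subunits encoded in mitochondrial DNA. Phenformin belongs to the biguanides, which lower blood glucose and are known inhibitors of complex I, and the comparisons ask whether mRNAs of the complexes beside and after it differed under the drug.

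All values are log2 intensities of a gene's probe set, so a difference of 1 is a doubling, and levels of different probe sets do not show which mRNA is more abundant. On the linear scale, array medians ran between 30.89 and 34.46, and the highest log2 value was 19.93. The hepatocyte mRNAs Alb and Ttr stood near that upper end on every array, at 19.87 to 19.91 for Alb and 19.10 to 19.21 for Ttr as group means. The mean of the 4 measured hepatocyte markers was 16.43 ± 0.09 in phenformin and 16.55 ± 0.04 in control livers of day 3 (SD, n = 4 each), and 16.37 ± 0.04 in phenformin and 16.41 ± 0.11 in control livers of day 14. Of 8 stellate cell and fibroblast markers, 5 fell at day 3 (median log2 change -0.69, with 0.901% of all genes falling), with list means of 8.45 ± 0.07 in phenformin and 9.09 ± 0.09 in control livers (SD, n = 4 each). At day 14 none of the 8 was called (median log2 change 0.076, with 0.321% of all genes called). In control livers 2 of the 8 fell at day 14 against day 3 (median -0.46, with 0.353% of all genes falling). Of 5 endothelial markers 1, Stab2, fell at day 3 (log2 change -0.56, limma adjusted p = 0.0412), with 0.901% of all genes falling. Among the 5, 2 had estimates above 0, up to 0.37, and the median log2 change was -0.0765. Of 6 macrophage markers 0 were called at day 3 (1.15% of all genes), and all 6 had estimates above 0 (52% of all genes, median 0.34). Their list mean was 10.64 ± 0.64 in phenformin, with replicate 2 at 11.53, and 10.28 ± 0.42 in control livers (SD, n = 4 each). At day 14, 4 of the 6 lay above 0 (50% of all genes, median 0.020). In pieces of tissue, fewer cells of a type and less RNA per cell cannot be told apart. The part of cell mixture in the values below was not tested.

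The regulators known for these genes bind short motifs close to the transcription start: NRF1 (nuclear respiratory factor 1), GABP (an ETS-family factor, also called NRF2), YY1 and the estrogen-related receptors. The 250 bases before the start were taken from RefSeq (GRCr8), where 28 of the 34 genes matched, and motifs were searched on both strands. The NRF1 motif (GCGCA, any base, then GCGC) was found in 3 of 28 members (10.71%), against 4.17% of 27457 promoters in the same table. The ETS motif CCGGAAGT was found in 5 of 28 (17.86%), against 3.29% of all promoters. The YY1 motif AAGATGGCG and the estrogen-related receptor motif TCAAGGTCA were each found in 1 of 28 (3.57%), against 0.736% and 0.368%. No match of one motif overlapped a match of another. The median share of G and C in these stretches was 56.0% for members and 52.0% for all promoters, and the motif shares were not adjusted for it. A match is a description of letters only, and no test was made.

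Neither after 3 nor after 14 days of phenformin did the nuclear mRNAs of complexes II to V pass the test in any direction. At day 3, 0 of 31 were called by limma with Benjamini-Hochberg adjustment over all genes, where 1.15% of all genes were called. The smallest adjusted p by limma was 0.305 (Atp5f1e), and 2 of 31 had an unadjusted p under 0.05, against 10.6% of all genes. At day 14, 0 of 31 were called (0.321% of all genes), the smallest adjusted p by limma was 0.443 (Uqcrfs1), and 1 had an unadjusted p under 0.05 (11.2% of all genes). With the effects of both days averaged, 0 of 31 were called (3.16% of all genes, 1.55% higher and 1.61% lower), the smallest adjusted p by limma was 0.176 (Atp5f1e), and 1 had an unadjusted p under 0.05 (16.2% of all genes).

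The intervals bound how large a difference could be. The estimates ran from -0.12 (Cyc1) to 0.34 (Atp5f1e) at day 3 and from -0.16 (Uqcrq) to 0.24 (Uqcr10) at day 14, as log2 changes of phenformin over control. The 95% interval lay within 1.5-fold either way for 28 of 31 members at day 3 (80.3% of all genes) and for 28 of 31 at day 14 (80.5% of all genes). For the average of both days it did so for 31 of 31 (91.2% of all genes), the farthest bound being the 1.49-fold of Cox6a1.

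Most estimates were small and above 0. This held for 21 of 31 at day 3 (52% of all genes), 23 of 31 at day 14 (50%) and 25 of 31 for the average of both days (51%). Among 34 measured nuclear complex I subunits the shares above 0 were alike, at 67.6%, 70.6% and 73.5% in the same order. Members also varied together across arrays, as described further on, so these are not counts of independent genes. The members' median log2 change was 0.068 at day 3 and 0.063 at day 14, beside 0.0066 and 0.0003 over all genes. By complex, the median at day 3 was 0.0030 for complex II, 0.041 for complex III, 0.077 for complex IV and 0.12 for ATP synthase. At day 14 the medians were -0.015, 0.063, 0.14 and 0.050 for the same 4 complexes. The mean of the 31 genes was 11.08 ± 0.11 in phenformin and 11.01 ± 0.13 in control livers of day 3, and 11.03 ± 0.06 in phenformin and 10.97 ± 0.10 in control livers of day 14 (SD, n = 4 each). Single arrays of these means overlapped at both days, from 10.95 to 11.21 against 10.90 to 11.18 at day 3 and from 10.97 to 11.11 against 10.84 to 11.08 at day 14. Leaving out control replicate 3 of day 3 raised that day's median to 0.12, and leaving out control replicate 4 of day 3 lowered it to 0.023. For day 14 the median was 0.096 without control replicate 1 of that day and 0.023 without its control replicate 4.

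**Figure D1:**
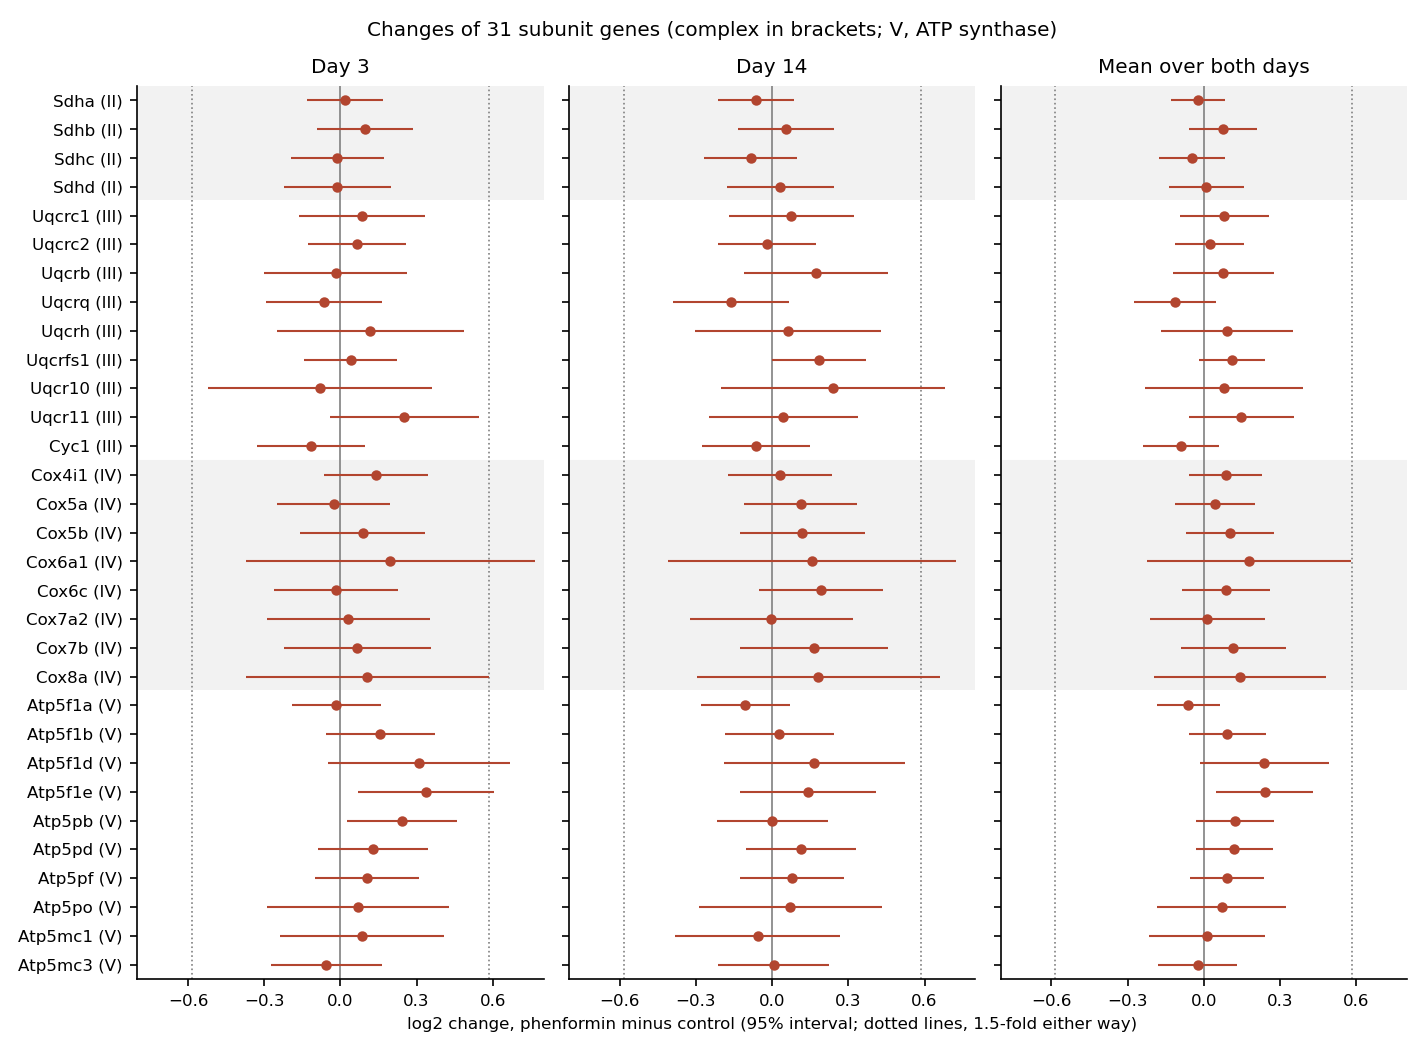
Log2 change (phenformin minus control, x axis) of each of the 31 genes with its 95% interval at day 3, at day 14 and averaged over both days, with the complex in brackets and dotted lines at 1.5-fold either way. Nearly all intervals cross 0, and in the average of both days all 31 end inside the dotted lines.

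Complex II oxidises succinate and feeds electrons into ubiquinone, and the median spread within groups was smallest for its mRNAs (pooled SD 0.11, against 0.14 to 0.18 for the other complexes). Sdha carries the flavin that takes electrons from succinate, Sdhb holds the iron-sulfur clusters, and Sdhc and Sdhd anchor the complex in the membrane beside the ubiquinone site. Sdhb read 8.79, 8.85, 8.79 and 8.65 in phenformin livers of day 3, against 8.69, 8.60, 8.93 and 8.46 in control livers. At day 14 it read 8.68, 8.79, 8.76 and 8.85 in phenformin livers, against 8.75, 8.74, 8.73 and 8.64 in control livers. Both pairs of groups overlapped, with log2 changes of 0.098 ± 0.089 at day 3 and 0.055 ± 0.089 at day 14 (SE, limma adjusted p = 0.797 and 0.896). Sdhc read 11.97, 12.03, 11.89 and 11.70 in phenformin livers of day 3, against 11.86, 11.83, 12.08 and 11.88 in control livers. At day 14 its phenformin livers lay close together, at 11.86, 11.88, 11.86 and 11.88, inside the control values of 11.97, 11.97, 12.09 and 11.80. Its log2 changes were -0.012 ± 0.086 and -0.084 ± 0.086 (SE, limma adjusted p = 0.986 and 0.802). Sdhd averaged 10.07 ± 0.12 in phenformin and 10.08 ± 0.02 in control livers of day 3, and 10.18 ± 0.21 and 10.15 ± 0.12 in the same order at day 14 (SD, n = 4 each).

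Sdha, a member chosen after its values were seen, had the lowest spread within groups of the 31 genes, a pooled SD of 0.076. It averaged 13.43 ± 0.04 in phenformin and 13.41 ± 0.09 in control livers of day 3, and 13.50 ± 0.04 in phenformin and 13.56 ± 0.11 in control livers of day 14 (SD, n = 4 each). The intervals of its fold were 0.913 to 1.12 at day 3 and 0.863 to 1.06 at day 14. Its promoter is shown because it alone holds the NRF1 motif at 2 places, which the capitals mark. They begin 89 and 46 bases before the start, and the stretch lies at chr1:30764303-30764552 on the plus strand (GRCr8, RefSeq).
Sdha: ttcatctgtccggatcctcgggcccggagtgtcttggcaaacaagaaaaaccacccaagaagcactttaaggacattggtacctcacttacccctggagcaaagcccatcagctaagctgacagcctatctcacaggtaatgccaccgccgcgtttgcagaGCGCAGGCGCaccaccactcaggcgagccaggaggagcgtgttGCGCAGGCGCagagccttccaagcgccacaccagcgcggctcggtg

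Complex III hands electrons from ubiquinol to cytochrome c. Its nuclear members were the core proteins Uqcrc1 and Uqcrc2, the redox subunits Cyc1 (cytochrome c1) and Uqcrfs1 (the Rieske iron-sulfur protein), and the small subunits Uqcrb, Uqcrq, Uqcrh, Uqcr10 and Uqcr11. Of the 31 genes, Uqcrfs1 alone had phenformin and control groups that did not overlap, and this at day 14 only, where 2.79% of all genes had such groups toward higher and 2.44% toward lower values. At day 3, where 3.51% of all genes had such groups toward higher and 4.17% toward lower values, no member did. Its values at day 14 were 7.35, 7.46, 7.34 and 7.56 in phenformin livers, against 7.12, 7.33, 7.21 and 7.31 in control livers. The lowest phenformin and the highest control array were nearly level. The log2 change was 0.18 ± 0.086 (SE, limma adjusted p = 0.443), or 1.14-fold (1.00 to 1.29). At day 3 Uqcrfs1 read 7.32, 7.33, 7.18 and 7.56 in phenformin livers, against 7.37, 7.24, 7.31 and 7.29 in control livers. Those groups overlapped, with a log2 change of 0.041 ± 0.086 (SE).

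Uqcr11 read 9.13, 9.51, 9.38 and 9.11 in phenformin livers of day 3, against 9.03, 8.89, 9.25 and 8.96 in control livers. At day 14 it read 9.28, 9.26, 8.91 and 9.06 in phenformin livers, against 9.41, 9.16, 9.00 and 8.76 in control livers. The groups overlapped at both days, with log2 changes of 0.25 ± 0.14 and 0.045 ± 0.14 (SE, limma adjusted p = 0.571 and 0.955). The core proteins differed little, with log2 changes of 0.085 ± 0.12 and 0.065 ± 0.091 for Uqcrc1 and Uqcrc2 at day 3 and 0.076 ± 0.12 and -0.019 ± 0.091 at day 14 (SE). Cyc1 and Uqcrq were the complex III members with estimates below 0 at both days, -0.12 ± 0.10 and -0.063 ± 0.10 for Cyc1 and -0.066 ± 0.11 and -0.16 ± 0.11 for Uqcrq (SE, limma adjusted p from 0.644 to 0.916). Uqcrb and Uqcr10, which help to hold the complex together, had estimates of -0.018 ± 0.13 and -0.082 ± 0.21 at day 3 and 0.17 ± 0.13 and 0.24 ± 0.21 at day 14 (SE). Uqcrh, the hinge protein that helps cytochrome c1 meet cytochrome c, averaged 8.45 ± 0.25 in phenformin and 8.34 ± 0.30 in control livers of day 3, and 8.27 ± 0.11 and 8.20 ± 0.33 in the same order at day 14 (SD, n = 4 each). Its promoter is shown because Uqcrh is one of 4 members whose values ran together across arrays, described further on. The capitals mark the ETS motif read on the other strand, 84 bases before the start, at chr5:134790883-134791132 on the minus strand (GRCr8, RefSeq).
Uqcrh: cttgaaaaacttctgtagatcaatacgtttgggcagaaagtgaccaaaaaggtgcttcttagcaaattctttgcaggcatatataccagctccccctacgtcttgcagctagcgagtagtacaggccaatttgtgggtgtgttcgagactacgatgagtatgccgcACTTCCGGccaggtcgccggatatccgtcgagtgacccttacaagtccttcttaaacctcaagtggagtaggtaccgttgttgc

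Complex IV reduces oxygen, and its nuclear subunits surround the catalytic core that mitochondrial DNA encodes. In the reported fit the 8 measured members had average estimates over both days from 0.014 (Cox7a2) to 0.18 (Cox6a1). Of the 8, 0 passed (3.16% of all genes, smallest limma adjusted p = 0.614). The sign of the smallest of these estimates is not settled. Under alternatives, 27 of 744 average values of the 31 members turned sign, at reported sizes up to 0.080. Some of the 744 could not turn, because the alternative leaves every estimate as reported. Cox5b, a subunit on the matrix side, read 6.47, 6.88, 6.71 and 6.78 in phenformin livers of day 3, against 6.64, 6.52, 6.72 and 6.61 in control livers. The day-14 values were 6.41, 6.82, 6.62 and 6.70 in phenformin livers, against 6.68, 6.40, 6.70 and 6.30 in control livers. The spread within each group was as wide as the gap between the groups, with log2 changes of 0.088 ± 0.12 and 0.12 ± 0.12 (SE, limma adjusted p = 0.883 and 0.785). Cox4i1, the isoform of subunit IV found in most tissues, read 10.43, 10.72, 10.53 and 10.79 in phenformin livers of day 3, against 10.47, 10.45, 10.63 and 10.36 in control livers. On day 14 the values were 10.58, 10.70, 10.57 and 10.64 in phenformin livers, against 10.73, 10.65, 10.38 and 10.59 in control livers. Here too the groups overlapped, with log2 changes of 0.14 ± 0.096 and 0.032 ± 0.096 (SE, limma adjusted p = 0.691 and 0.953).

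The other complex IV members had log2 changes from -0.026 (Cox5a) to 0.20 (Cox6a1) at day 3 and from -0.0027 (Cox7a2) to 0.19 (Cox6c) at day 14. Cox6a1 and Cox7a2 are the isoforms of subunits VIa and VIIa found in liver, and Cox5a, Cox6c, Cox7b and Cox8a are further small subunits of the enzyme. Cox6a1 and Cox8a, named after their values were seen, had the widest spread within groups of all 31 genes, pooled SDs of 0.42 and 0.35. Cox6a1 averaged 12.86 ± 0.39 in phenformin and 12.66 ± 0.44 in control livers of day 3, and 12.77 ± 0.33 in phenformin and 12.61 ± 0.49 in control livers of day 14 (SD, n = 4 each). The 95% intervals of its fold, 0.774 to 1.70 and 0.753 to 1.65, were accordingly wide. For Cox8a the same 4 means were 6.89 ± 0.36, 6.78 ± 0.36, 6.90 ± 0.33 and 6.71 ± 0.35 (SD, n = 4 each). Its promoter is shown because Cox8a ran with Uqcrh across arrays and holds the ETS motif at 2 places, again on the other strand and in capitals, 58 and 20 bases before the start. The stretch lies at chr1:213833624-213833873 on the minus strand (GRCr8, RefSeq).
Cox8a: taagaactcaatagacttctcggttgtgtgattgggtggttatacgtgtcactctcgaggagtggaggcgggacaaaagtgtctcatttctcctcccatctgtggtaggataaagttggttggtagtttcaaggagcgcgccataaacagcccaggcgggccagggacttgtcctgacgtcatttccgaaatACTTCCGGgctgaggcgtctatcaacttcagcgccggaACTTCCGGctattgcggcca

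ATP synthase turns the proton gradient into ATP. In its head, Atp5f1a and Atp5f1b are the alpha and beta subunits, Atp5f1b with the catalytic sites, and Atp5f1d and Atp5f1e are the delta and epsilon subunits of the turning central stalk. At day 3 the members with the smallest p among the 31 were Atp5f1e and Atp5pb. Atp5f1e read 12.35, 12.85, 12.73 and 12.48 in phenformin livers of day 3, against 12.24, 12.05, 12.47 and 12.31 in control livers. Of the phenformin arrays, 3 lay above every control array, one of them barely, and the lowest lay under the highest control array. The log2 change was 0.34 ± 0.13 (SE), or 1.26-fold (1.05 to 1.52), with a limma adjusted p of 0.305. At day 14 it read 12.54, 12.70, 12.36 and 12.35 in phenformin livers, against 12.53, 12.42, 12.21 and 12.23 in control livers, a log2 change of 0.14 ± 0.13 (SE, limma adjusted p = 0.762). A second probe set named for Atp5f1e gave differences of 0.35 at day 3 and 0.16 at day 14, but its identifier places it on chromosome 14, while the gene lies on chromosome 3 and RefSeq lists 1 locus of like name.

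Atp5f1d read 6.53, 6.83, 6.68 and 6.32 in phenformin livers of day 3, against 6.22, 6.16, 6.56 and 6.18 in control livers. Day 14 gave 6.67, 6.28, 6.51 and 6.13 in phenformin livers, against 6.64, 6.19, 6.30 and 5.80 in control livers. The groups overlapped at both days, with log2 changes of 0.31 ± 0.17 and 0.17 ± 0.17 (SE, limma adjusted p = 0.565 and 0.801). Atp5f1b read 16.002, 16.44, 16.45 and 16.45 in phenformin livers of day 3, against 16.19, 16.19, 16.23 and 16.11 in control livers. For day 14 the values were 16.13, 16.32, 16.15 and 16.32 in phenformin livers, against 16.34, 16.07, 16.18 and 16.22 in control livers. At day 3, 3 of its 4 phenformin arrays lay above every control array and the fourth below every one, and at day 14 the groups overlapped (log2 changes 0.16 ± 0.10 and 0.028 ± 0.10, SE). Atp5f1a had log2 changes of -0.015 ± 0.082 and -0.11 ± 0.082 (SE).

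The peripheral stalk, which keeps the head from turning, is built from Atp5pb, Atp5pd, Atp5pf (coupling factor 6) and Atp5po (the oligomycin sensitivity protein), and Atp5mc1 and Atp5mc3 each encode the c subunit of the membrane ring. Atp5pb, named after its values were seen, read 14.92, 15.16, 15.06 and 15.39 in phenformin livers of day 3, against 14.90, 14.83, 14.97 and 14.85 in control livers. Of its phenformin arrays, 3 lay above every control array. The log2 change was 0.24 ± 0.10 (SE, limma adjusted p = 0.401) at day 3 and 0.0009 ± 0.10 at day 14, and a second probe set gave differences of 0.18 and -0.0008. Atp5pd, Atp5pf and Atp5po had log2 changes of 0.13 ± 0.10, 0.11 ± 0.096 and 0.068 ± 0.17 at day 3 and 0.11 ± 0.10, 0.078 ± 0.096 and 0.072 ± 0.17 at day 14 (SE). Those of Atp5mc1 and Atp5mc3 were 0.084 ± 0.15 and -0.055 ± 0.10 at day 3 and -0.057 ± 0.15 and 0.0058 ± 0.10 at day 14 (SE).

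A pair of ATP synthase promoters is shown, Atp5f1d because it ran with Uqcrh and Cox8a across arrays without holding any of the motifs, and Atp5pf because it holds the YY1 motif (capitals, 111 bases before the start) and its gene overlaps Gabpa, a regulator described below, in RefSeq. They lie at chr7:10214351-10214600 and chr11:37375102-37375351, both on the minus strand (GRCr8, RefSeq).
Atp5f1d: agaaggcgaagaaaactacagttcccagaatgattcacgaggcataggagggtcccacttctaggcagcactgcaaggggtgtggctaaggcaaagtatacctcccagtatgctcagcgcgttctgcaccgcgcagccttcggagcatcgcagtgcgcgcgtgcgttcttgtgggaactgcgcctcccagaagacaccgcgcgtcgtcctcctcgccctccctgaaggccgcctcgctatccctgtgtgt
Atp5pf: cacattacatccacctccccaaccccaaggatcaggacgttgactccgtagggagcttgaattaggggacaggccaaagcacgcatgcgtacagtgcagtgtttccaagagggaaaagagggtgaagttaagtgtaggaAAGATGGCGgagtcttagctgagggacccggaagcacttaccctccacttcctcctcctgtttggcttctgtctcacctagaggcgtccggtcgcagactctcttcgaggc

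**Figure D2:**
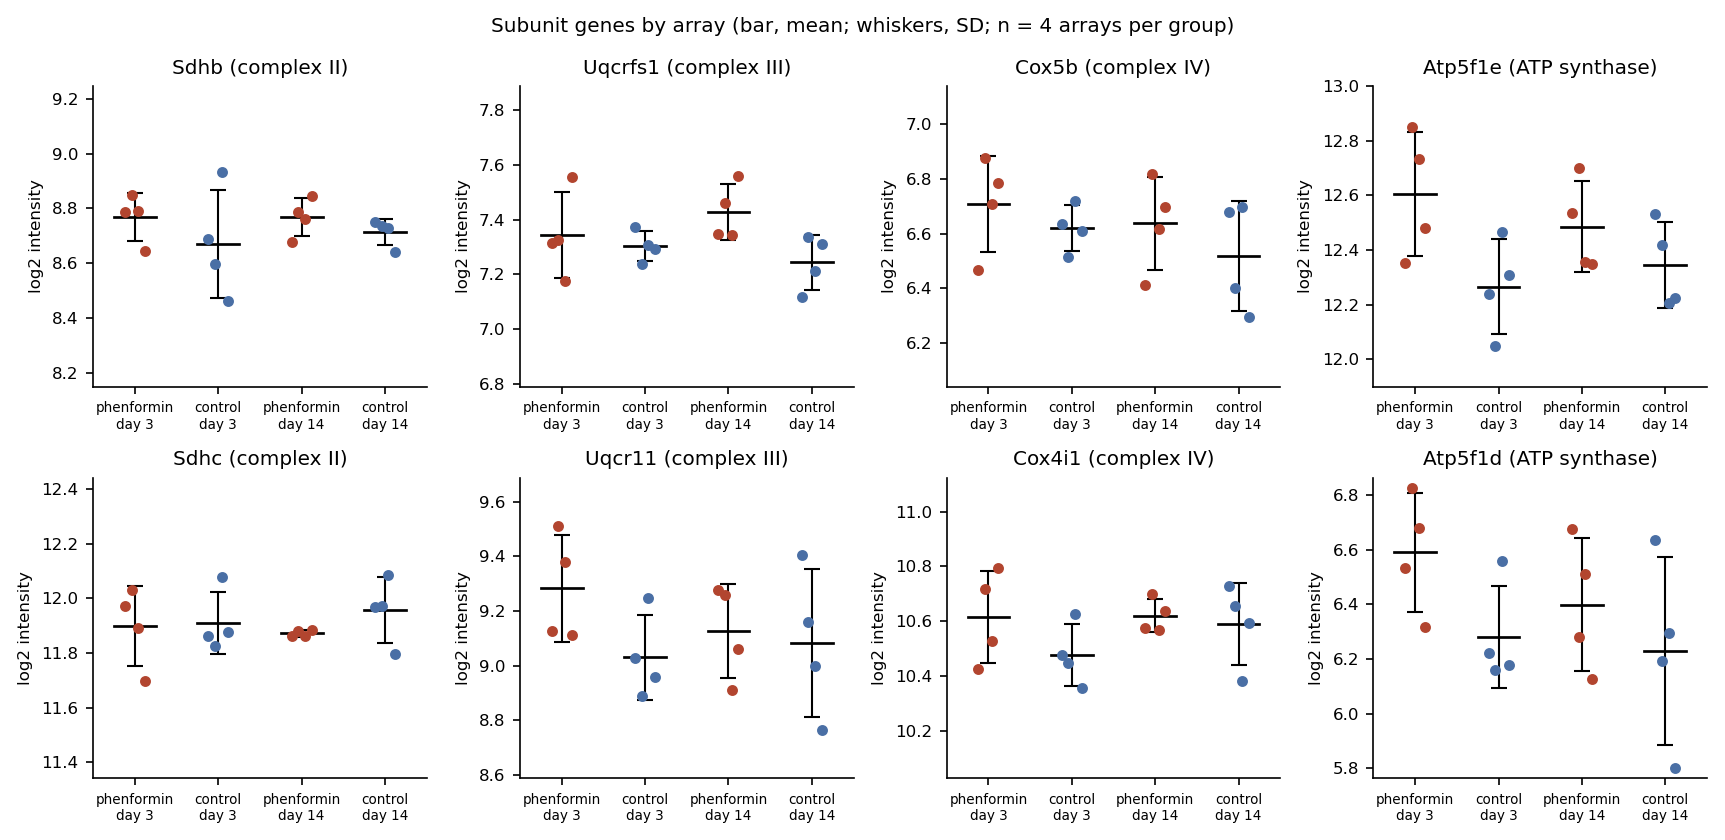
Log2 intensity (y axis) of 8 subunit genes, 2 of each complex, on every array of the 4 groups, with points for arrays, bars for means and whiskers for SD (n = 4). Groups overlap in every panel except Uqcrfs1 at day 14, where the phenformin arrays sit from 7.34 to 7.56 and the control arrays from 7.12 to 7.33.

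**Figure D3:**
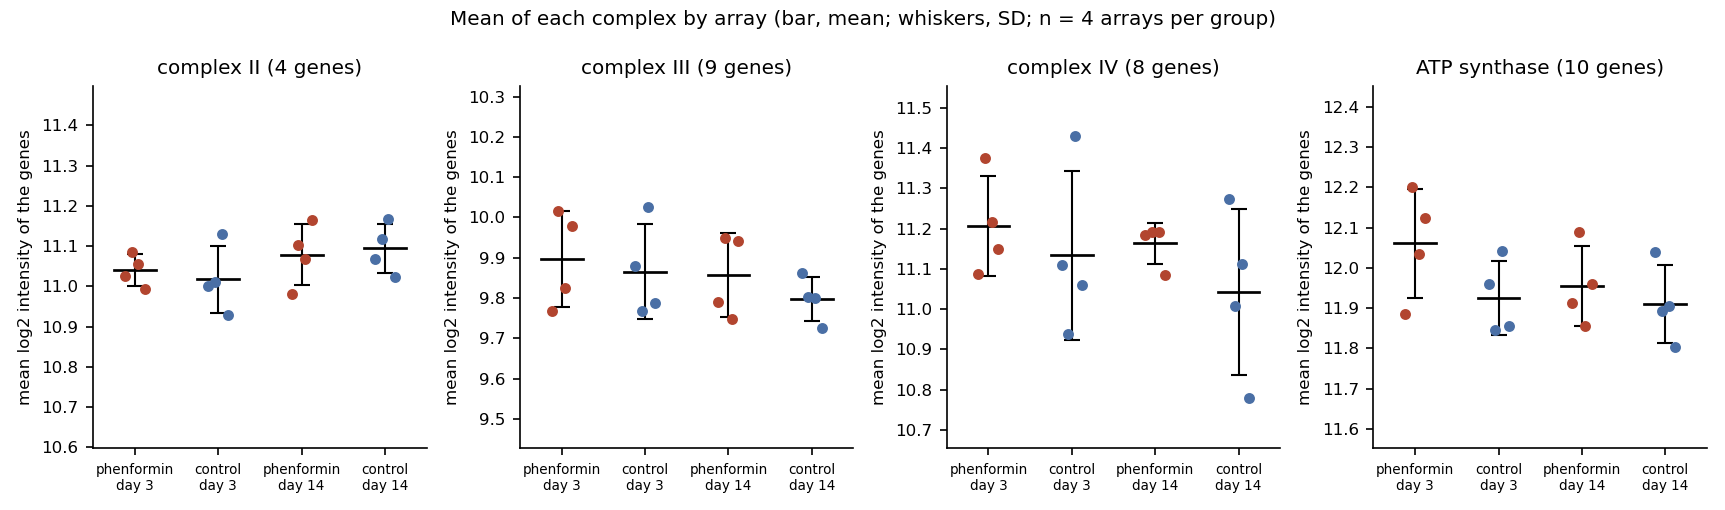
Mean log2 intensity of the measured genes of each complex (y axis) on every array of the 4 groups, with points for arrays, bars for means and whiskers for SD (n = 4). The means of ATP synthase were 12.06 ± 0.14 in phenformin and 11.93 ± 0.09 in control livers of day 3 (SD), and phenformin and control arrays overlap in all 4 complexes at both days.

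Whether the effect of phenformin differed between the days was tested as the difference of both effects (day 14 less day 3). No member passed (0 of 31, 0.00453% of all genes, limma), and 0 of 31 had an unadjusted p under 0.05 (4.68% of all genes). The largest differences of effect were 0.32 ± 0.29 for Uqcr10 and -0.24 ± 0.14 for Atp5pb (SE). The estimate was above 0 for 12 of 31 members (50.5% of all genes), and the 95% interval lay within 1.5-fold for 24 (63.3%). In the control livers, day 14 was also set against day 3, and 0 of 31 were called (0.403% of all genes, limma), with 1 unadjusted p under 0.05 (7.15% of all genes). The estimate was above 0 for 11 of 31 members (48.8% of all genes), and the 95% interval lay within 1.5-fold for 30 (82.1%). The gene with an unadjusted p under 0.05 was Sdha, with a log2 change of 0.15 ± 0.070 (SE, limma adjusted p = 0.698). Atp5pb had control groups that did not overlap, day 14 being higher (1.54% of all genes), with 14.99, 15.03, 15.20 and 15.06 at day 14 against 14.90, 14.83, 14.97 and 14.85 at day 3. Atp5f1a had control groups that did not overlap the other way (2.96% of all genes), with 15.13, 15.08, 15.12 and 15.12 at day 14 against 15.18, 15.22, 15.21 and 15.13 at day 3. For phenformin livers at day 14 against day 3, 0 of 31 were called (0% of all genes, limma) and 0 had an unadjusted p under 0.05 (7.71% of all genes). The estimate was above 0 for 10 members (48.2% of all genes), the 95% interval lay within 1.5-fold for 29 (81.5%), and no member had groups that did not overlap (2.1% of all genes toward higher and 2.15% toward lower values).

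Members also varied from array to array within groups, and some did so together. The pooled SD within groups had a median of 0.15 over the 31 genes and 0.18 over all genes, and ran from 0.076 (Sdha) to 0.42 (Cox6a1). Cox6a1, Uqcrh, Cox8a and Atp5f1d, named after their values were seen, tended to be high and low on the same arrays. Over the 16 arrays, as deviations from group means, Cox6a1 correlated with Uqcrh at r = 0.96 (rho = 0.95), with Atp5f1d at r = 0.92 (rho = 0.95) and with Cox8a at r = 0.91 (rho = 0.91). Without the 2 arrays farthest from the median of Cox6a1 these values of r were 0.94, 0.93 and 0.89. Uqcr10 and Uqcrb ran the other way, with r = -0.65 and r = -0.66 against Cox6a1 (rho = -0.59 and -0.64). Without the 2 arrays farthest from the median of Uqcr10 its r was -0.56. Without the 2 farthest from the median of Uqcrb, which are not those of Cox6a1 either, its r was -0.54. Among all 465 pairs of members the median r was 0.39, 353 pairs lay above 0, 26 above 0.8 and 16 below -0.5. These correlations are descriptions across arrays that share one normalization, and no p is given.

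Single arrays carried many members at once. Control replicate 3 of day 3 had the highest value of its group for 25 of 31 genes, and phenformin replicate 1 of day 3 the lowest of its group for 18. Control replicate 1 of day 14 had the highest value for 19 genes and control replicate 4 of day 14 the lowest for 18. This was not particular to these genes. The mean of 34 nuclear complex I subunits was highest or lowest of its group on the same arrays, at 9.79, 9.56, 9.70 and 9.36 in that order. Taking the first component of the deviations of all genes, which held 15.6% of their variance, as a covariate left 0 of 31 called at day 3 and at day 14 (smallest limma adjusted p = 0.275 and 0.412), a choice made after seeing the data. Built from deviations from group means, that component could change the spread but no estimate. What the arrays differ in was not tested.

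**Figure D4:**
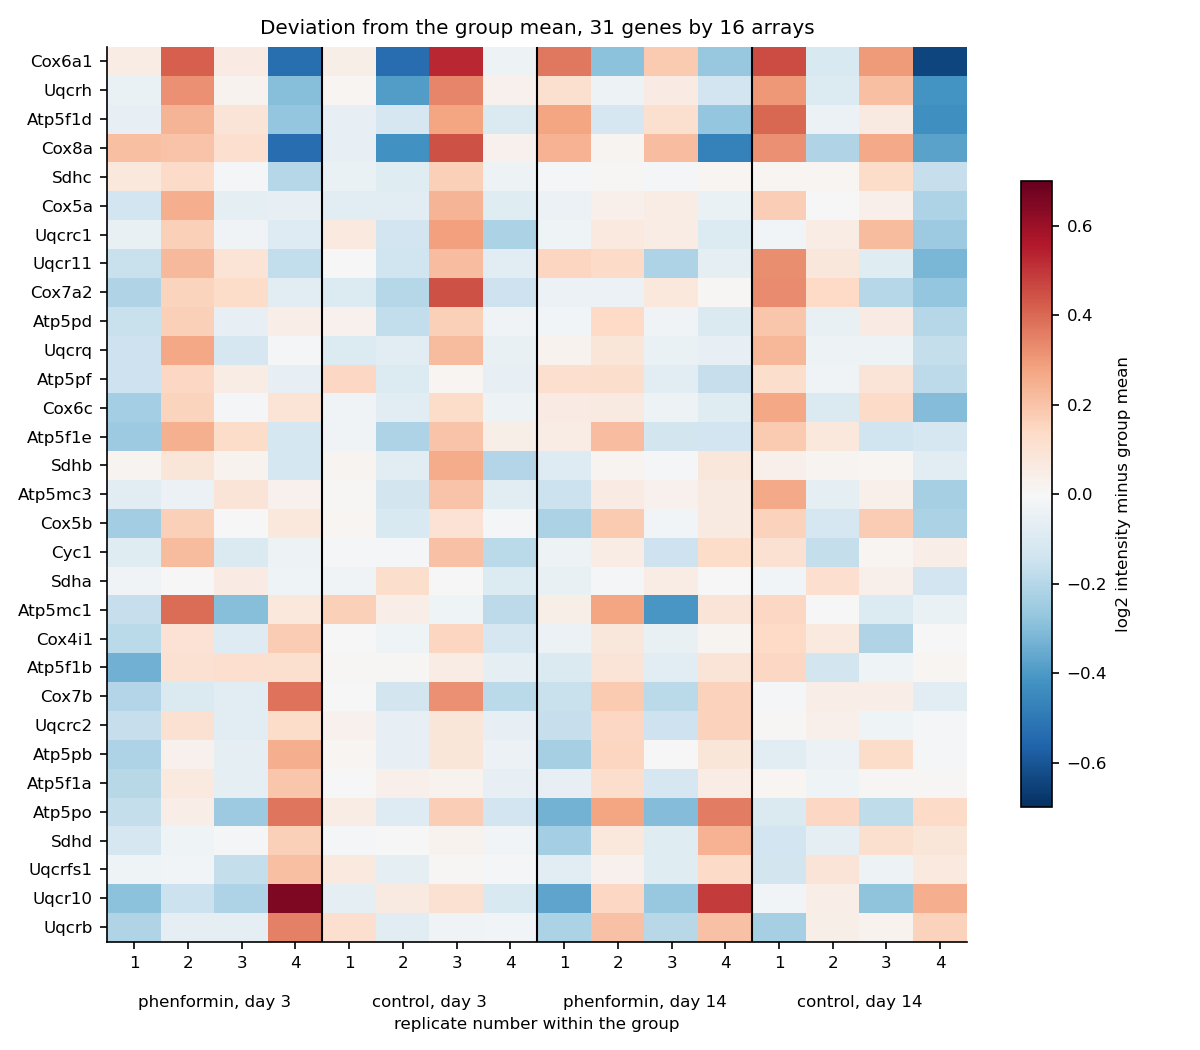
Deviation of each of the 31 genes (rows, ordered by correlation with Cox6a1) from its group mean on each of the 16 arrays (columns, 4 per group), in log2 units, red above and blue below. Cox6a1, Uqcrh, Atp5f1d and Cox8a share their red and blue arrays within groups, while Uqcr10 and Uqcrb at the bottom tend to the opposite colours.

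Genes that serve these complexes were looked at beside the members. Among 11 measured further subunits and isoforms, 0 passed at day 3, at day 14 or in the average of both days (1.15%, 0.321% and 3.16% of all genes). The heart and muscle isoform Cox6a2 had an average log2 change of -0.20 ± 0.11 and the probe set named for Cycs (cytochrome c) of -0.18 ± 0.10 (SE, limma adjusted p = 0.406 and 0.418). By its identifier that Cycs probe set lies on chromosome 18, while RefSeq places the gene on chromosome 4 and lists 10 loci of like name, so its value may not be that of the gene. Cox6a2 stood between 5.30 and 5.59 as group means, below the median gene (5.86), where background signal can hide a difference. The 3 measured mitochondrially encoded subunits stood at the upper end of the scale, for mt-Co1 and mt-Co3 with group means from 19.38 to 19.89. Differences between groups may be hidden there, which was not tested. At day 3, 1 of the 3 had groups that did not overlap, toward higher values (3.51% of all genes), and 0 were called (1.15% of all genes). Of 12 measured tricarboxylic acid cycle enzymes 0 passed at day 3, at day 14 or in the average (1.15%, 0.321% and 3.16% of all genes). In lists this short, counts of 0 lie near those shares. Idh2, which makes mitochondrial NADPH, had an average log2 change of 0.42 ± 0.13 and Dlst, the core enzyme of the 2-oxoglutarate dehydrogenase complex, of 0.21 ± 0.068 (SE, limma adjusted p = 0.11 and 0.115).

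Of 30 measured assembly factors 1, Cox16, fell at day 14 (0.177% of all genes) and in the average of both days (1.61% of all genes). At day 3, 0 passed (1.15% of all genes). Cox16 helps to build complex IV. Its values at day 14 were 10.27, 10.01, 10.09 and 10.01 in phenformin livers, against 10.52, 10.49, 10.51 and 10.54 in control livers. At day 3 they were 10.11, 10.18, 10.22 and 10.26 in phenformin livers, against 10.31, 10.51, 10.43 and 10.43 in control livers. Every phenformin array lay below every control array of its day, as in 4.17% of all genes at day 3 and 2.44% at day 14. The log2 change was -0.42 ± 0.072 at day 14, -0.23 ± 0.072 at day 3 and -0.32 ± 0.051 on average (SE, limma adjusted p = 0.0214, 0.206 and 0.00362). The call at day 14 was lost in 8 of 25 alternatives (adjusted p up to 0.195, with the day-14 arrays alone), and that of the average was kept in all 24. In RefSeq the Cox16 gene overlaps 3 other loci, Adam4 and Adam4l1 among them, so its probe set may read more than 1 gene. The same doubt holds for Gabpb1, Tfb1m and Ndufa2, described next, whose genes overlap 2, 3 and 1 other loci. Lrpprc, which keeps mitochondrial mRNAs stable, had an average log2 change of 0.26 ± 0.082 (SE, limma adjusted p = 0.106).

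Of 12 measured regulators 1, Gabpb1, rose in the average of both days (1.55% of all genes), and 0 passed at day 3 or day 14 (1.15% and 0.321% of all genes). Gabpb1 is the partner of Gabpa, whose ETS domain binds the motif described above. It read 7.96, 7.64, 7.70 and 8.10 in phenformin livers of day 3, against 7.56, 7.49, 7.11 and 7.70 in control livers. At day 14 it read 7.86, 7.73, 8.09 and 8.04 in phenformin livers, against 7.37, 7.60, 7.69 and 7.66 in control livers. The groups overlapped at day 3 and not at day 14 (2.79% of all genes toward higher values), and the average log2 change was 0.37 ± 0.095 (SE, limma adjusted p = 0.0492). The adjusted p lay just under the threshold, and the call was lost in 17 of 24 alternatives (adjusted p from 0.0326 to 0.0998). Gabpa had an average log2 change of 0.20 ± 0.082 (SE, limma adjusted p = 0.23). In control livers at day 14 against day 3, 1 of the 12 regulators, Tfb1m, fell (0.353% of all genes). Tfb1m, which modifies mitochondrial ribosomal RNA, averaged 8.71 ± 0.09 at day 14 and 9.21 ± 0.19 at day 3 (SD, n = 4 each). The fall was 0.50 on the log2 scale (limma adjusted p = 0.0486), and the call was lost in 18 of 25 alternatives.

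Complex I lies upstream of these complexes, and 1 of its 34 measured nuclear subunits rose and 1 fell in the average of both days. At day 3 and at day 14, 0 passed (1.15% and 0.321% of all genes). With 1.55% of all genes rising and 1.61% falling in that average, 1 of 34 each way is near the share of all genes. Both are accessory subunits. Ndufa2 averaged 8.01 ± 0.15 in phenformin and 7.68 ± 0.13 in control livers of day 3, and 7.95 ± 0.13 in phenformin and 7.73 ± 0.12 in control livers of day 14 (SD, n = 4 each). Its average log2 change was 0.27 ± 0.070 (SE, limma adjusted p = 0.0446). Ndufa8 averaged 8.83 ± 0.18 in phenformin and 9.14 ± 0.11 in control livers of day 3, and 8.44 ± 0.19 in phenformin and 8.86 ± 0.23 in control livers of day 14 (SD, n = 4 each). Its average log2 change was -0.37 ± 0.089 (SE, limma adjusted p = 0.0372). Both calls were lost in many alternatives, 14 of 24 for Ndufa2 and 11 of 24 for Ndufa8.

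**Figure D5:**
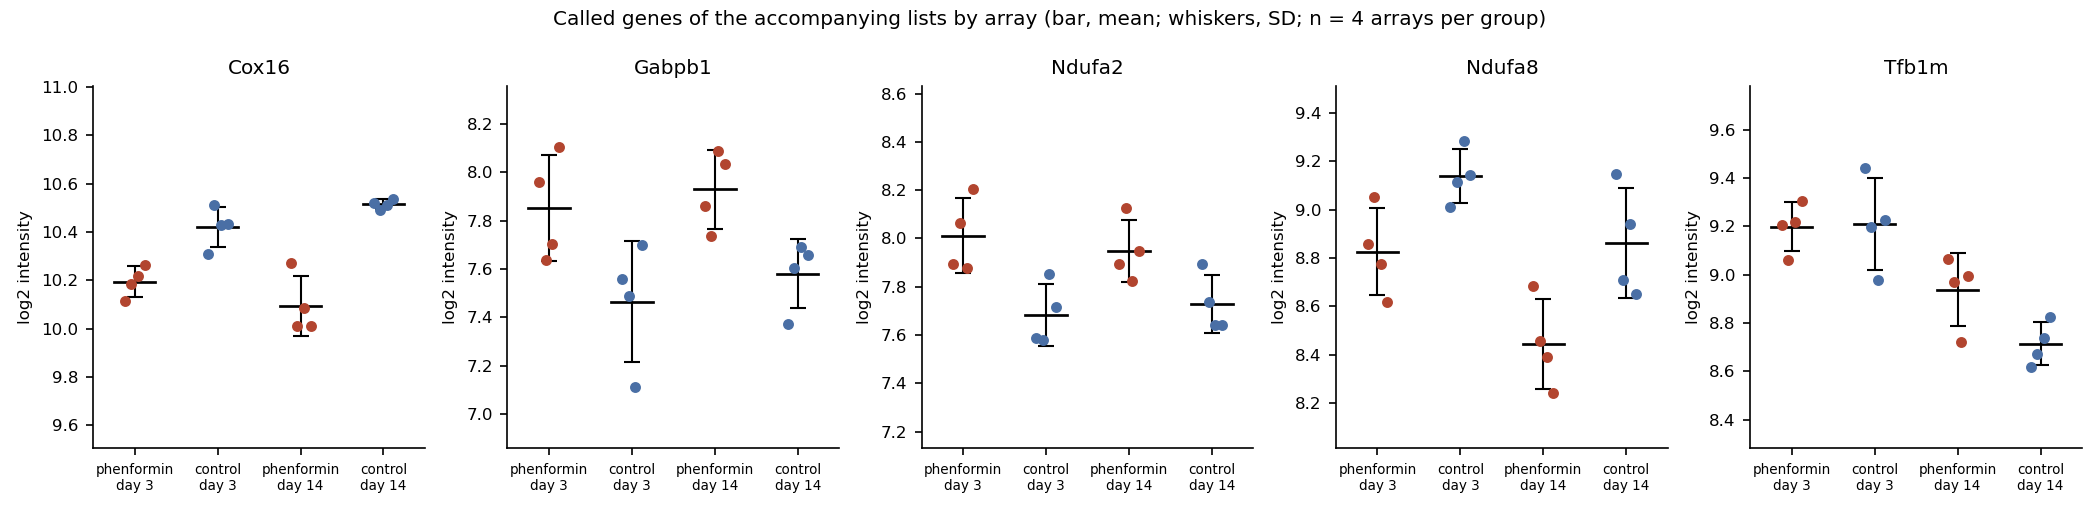
Log2 intensity (y axis) of the assembly factor gene Cox16, the regulator genes Gabpb1 and Tfb1m and the complex I genes Ndufa2 and Ndufa8 on every array of the 4 groups, with points for arrays, bars for means and whiskers for SD (n = 4). For Cox16 the phenformin arrays lie below the control arrays at both days, by 0.23 on the log2 scale at day 3 and 0.42 at day 14 as means.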

How the data were processed

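Liver RNA was measured on 16 microarrays. The deposited values are linear intensities of 68842 probe sets, made by the authors with RMA, per the submitters' processing notes. Program, version and genome build: not given in the sources used here. RMA in its usual form gives all arrays one distribution, so that a shift shared by all genes would not be seen. The deposited intensities were turned to log2. Of the probe sets, 23446 had 1 gene symbol, 505 several and 44891 none. A gene took its one-symbol probe set with the highest mean, which gave 22093 genes. For 19 of the 31 measured members the RefSeq table lists loci of like name (pseudogenes or copies), with which probes may share transcripts, and the same doubt holds for 12 of the 34 members whose genes overlap another.

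One fit in limma (version 3.58.1, under R 4.3.3) held the means of the 4 groups, leaving 12 residual degrees of freedom, or 15.15 when the prior is counted. Tests were two-sided, and a gene was called at an adjusted p under 0.05 (Benjamini-Hochberg over 22093 genes). Intervals are 95% intervals from the moderated SE. The 6 comparisons were phenformin against control at day 3, at day 14 and averaged, the difference of these effects, and day 14 against day 3 in control and in phenformin livers. They share arrays. A two-sided exact permutation test over the 8 arrays of a day was an alternative for single members. The number of arrays limits the precision, and cage mates may make arrays less independent than assumed.

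The members and lists were chosen with earlier results of these data known. Values in every array are given for the 2 members of each complex with the smallest p in the average of both days and for the members with the highest and the lowest intensity (Atp5f1b and Atp5f1d), and the 2 genes with the smallest p are named of each further pathway list. Other names were chosen after their values were seen. Alternatives were another variance model, a filter on dim genes, quantile normalization, centring, fewer arrays, the replicate block, array weights, averaged probe sets, each array left out, and the shared component.

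Same-numbered arrays of different groups correlated between -0.11 and 0.18 in their deviations from group means, over 0.1 in 7 of 24 pairs. Their median r was 0.010, against -0.012 for arrays of different numbers. The reported fit did not take the replicate numbers to pair the arrays, and the values do not exclude a weak pairing. The replicate block is given as an alternative.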

Additional observations from a re-analysis of the deposited data

Results flagged for a closer look

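In 8 of 124 groups of 4 arrays (31 members in 4 groups), one array lay so far from the rest that its gap to the nearest array passed the critical share of the group's range in Dixon's test at the 95% level. Chance alone marks about 1 in 20 groups. Phenformin replicate 4 of day 3 stood high for Uqcr10, at 12.25 against 11.45 for the next array, and low for Cox8a, at 6.36 against 7.01 for the next. Phenformin replicate 1 of day 3 was low for Atp5f1b, at 16.002 against 16.44 for the next array. Phenformin replicate 1 of day 14 was low for Atp5mc3, at 7.23 against 7.41. The other 4 cases were high values on control replicate 3 of day 3, which read 9.62 for Uqcrq (next 9.35), 10.43 for Cox5a (next 10.12), 13.93 for Cox7a2 (next 13.39) and 6.56 for Atp5f1d (next 6.22). What set these arrays apart was not tested.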

How the results depend on the processing

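Under every alternative run, 0 of 31 members were called in each of the 6 comparisons. The smallest adjusted p over the alternatives was 0.188 at day 3, 0.337 at day 14, 0.121 for the average of both days, 0.87 for the difference of effects, 0.357 for control livers and 0.501 for phenformin livers over time. The members' median log2 change stayed above 0, from 0.023 to 0.12 at day 3 and from 0.022 to 0.096 at day 14 (0.022 with quantile normalization, 0.023 without control replicate 4 of day 14). Of 1550 member values under alternatives at these days, 74 had another sign than the reported value, of 24 members and at reported sizes up to 0.16, and 59 of the 74 came on leaving out an array. Many of the 1550 could not turn, since several alternatives leave every estimate as reported. These were the other variance model, the filter on dim genes, fewer arrays, the replicate block, the shared component and leaving out an array of the other day. The 74 of 1550 is therefore no measure of how stable the signs were. For Atp5f1e at day 3 the log2 change ran from 0.26 to 0.42 and for Uqcrfs1 at day 14 from 0.14 to 0.21. With the replicate block 0 of 31 members were called (smallest adjusted p = 0.358 at day 3 and 0.412 at day 14), and Cox16 at day 14 (adjusted p = 0.054), Tfb1m (0.0699), Gabpb1 (0.0501) and Ndufa2 (0.0753) no longer passed. Replicate numbers were not shown to pair the arrays. The exact permutation test over the 8 arrays of a day gave an unadjusted p under 0.05 for 1 of 31 members at day 14 (0.0286, the smallest possible, which groups that do not overlap always give) and for 0 at day 3 (lowest 0.0571). All genes called at day 3 numbered 254 in the reported fit and otherwise between 102 (without control replicate 1 of day 3) and 405 (array weights). At day 14 they numbered 71 and between 23 (day-14 arrays alone) and 156 (shared component as covariate). In the average they numbered 699 and between 421 (without control replicate 2 of day 3) and 915 (lowest 30% of genes left out). In control livers over time they numbered 89 and between 0 (control arrays alone, without control replicate 1 of day 3, and without control replicate 2 of day 14) and 149 (array weights), by limma, with 7.15% of all genes at an unadjusted p under 0.05 in the reported fit. Probe sets near the upper end of the scale and those below the median gene limit what could be seen, and detection calls were not used here.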

Other observations

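Both members left out of the tests for having only probe sets named for several genes gave values as follows. The probe set of Cox7c and LOC252890 averaged 6.01 ± 0.12 in phenformin and 6.05 ± 0.24 in control livers of day 3, and 5.96 ± 0.09 in phenformin and 5.93 ± 0.15 in control livers of day 14 (SD, n = 4 each). The probe set of Taf3 and Atp5f1c averaged 7.84 ± 0.11 in phenformin and 7.67 ± 0.08 in control livers of day 3, and 7.82 ± 0.06 in phenformin and 7.73 ± 0.07 in control livers of day 14 (SD, n = 4 each). Which gene each of these signals came from cannot be told apart.

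The erythroid markers had estimates below 0 in the phenformin livers without a call. The mean of 4 markers was 10.08 ± 0.10 in phenformin and 10.46 ± 0.29 in control livers of day 3, and 9.72 ± 0.44 in phenformin and 10.24 ± 0.20 in control livers of day 14 (SD, n = 4 each). Alas2, the enzyme that starts heme synthesis in red cells, had an average log2 change of -0.61 ± 0.17 (SE, limma adjusted p = 0.0601). Of 4 bile duct markers 1, Epcam, a surface protein of duct cells, rose in the average of both days (1.55% of all genes). The other 3 had average estimates below 0, and the median of the 4 was -0.099. For Epcam the average log2 change was 0.53 ± 0.14 (SE, limma adjusted p = 0.0483, just under the threshold). Epcam averaged 8.43 ± 0.24 in phenformin and 7.62 ± 0.38 in control livers of day 3, and 8.13 ± 0.37 in phenformin and 7.89 ± 0.13 in control livers of day 14 (SD, n = 4 each). Krt19, another duct marker, had an average log2 change of -0.34 ± 0.11 (SE, limma adjusted p = 0.123).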
